A study of Saccharomyces cerevisiae BY4741 with 66 samples.

Results

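The 10 genes described here carry sulfur from sulfate to S-adenosylmethionine in Saccharomyces cerevisiae. They were chosen by pathway, as a fixed set of gene identifiers, from the 6605 features in each table of values per gene: MET3, MET14, MET16 and MET10 of sulfate assimilation, MET17, CYS3 and CYS4 of sulfur transfer, and MET6, SAM1 and SAM2 of the methionine cycle. Their footprints were compared between immunopurified and total translatomes, between media and deletion strains, and between libraries with and without MET17 footprints. The series used selective ribosome profiling, in which footprints of all ribosomes in a lysate give the total translatome and footprints of ribosomes bound by a GFP-tagged subunit on antibody beads give the IP translatome. Tables of values per gene were analysed for 50 of the 66 libraries, which are 25 IPs and 25 totals from 15 strains, with 2 pairs in 10 strains and 1 pair in 5. Every library is labelled BY4741, a haploid laboratory strain. FAS1dMPT-GFP (a GFP-tagged FAS1 without a segment of its MPT domain) and FAS1-GFP FAS2dMPT (FAS1-GFP beside a FAS2 without such a segment) grew with added fatty acids and have 2 totals each. TRP2-GFP, with 2 totals, and TRP3-GFP, with 1, grew in SD-trp, and CPA1-GFP, with 1, in SD-arg. The other 10 strains carry full-length FAS1-GFP, FAS2-GFP, GUS1-GFP, MES1-GFP, ARC1-GFP, PFK1-GFP, PFK2-GFP, SUI2-GFP, SUI3-GFP or GCD11-GFP, grew in YPD and gave 17 totals. All cultures were kept at 30 °C. Because tagged subunit, strain and medium were set together, the effect of a medium and that of a strain cannot be told apart.

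Yeast takes up sulfate, activates it with ATP and reduces it to sulfide, which MET17 joins to O-acetylhomoserine to form homocysteine. Homocysteine either becomes cysteine by way of cystathionine or is methylated to methionine, from which S-adenosylmethionine, the main methyl donor of the cell, is made. Transcription of many of these genes is controlled by Met4 and its cofactors according to the supply of sulfur compounds. MET17, also known as MET15, is deleted in BY4741, which is of mating type a and keeps LYS2, an enzyme gene of lysine synthesis. The sister strain BY4742 is of mating type alpha, keeps MET17 and lacks LYS2.

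Values are RPM, reads of a gene on a scale that gives every library the same total over nuclear genes. The value of 1 read implied 0.544 to 31.7 M reads per IP and 1.74 to 55.9 M per total, of which 37.8% to 94.3% and 73.0% to 96.5% lay over the listed genes. Whether replicates of a strain were grown as separate cultures is not in the labels, and p-values cover no more than the spread between these libraries. Several libraries went against the labelled strain. MET17 stood at 138 to 1022 RPM in 7 of 25 IPs and at 336 to 971 RPM in 6 of 25 totals, although the gene is deleted in BY4741. In the library labelled FAS1-GFP FAS2dMPT IP 2, 94.3% of reads lay over genes, above every other IP. FAS1-GFP total 2 stood apart from the other YPD totals, as described with its values.

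Per kilobase of coding sequence, the genes of the lower pathway carried many more footprints than those of sulfate reduction. Over the 17 YPD totals the median level was 873 RPM per kb for CYS3 (cystathionine gamma-lyase), 803 for SAM1 (S-adenosylmethionine synthetase), 754 for CYS4 (cystathionine beta-synthase), 575 for MET6 (methionine synthase) and 313 for SAM2 (the second S-adenosylmethionine synthetase). It was 35.7 RPM per kb for MET14 (adenylylsulfate kinase), 21.1 for MET10 (a sulfite reductase subunit), 10.4 for MET16 (phosphoadenylylsulfate reductase) and 10.3 for MET3 (ATP sulfurylase). MET17 had a median of 0.157 RPM per kb, with libraries between 0 and 727. Among neighbours in this order, the ranges over libraries were apart between SAM2 and MET14 and overlapped in the other pairs. MET16 and MET3 were the closest, with MET16 above MET3 in 6 of 17 libraries.

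The deposited coordinates of all 10 genes are those of assembly R64. MET3 (YJR010W) spans 456239 to 457774 on chromosome X, MET14 (YKL001C) 438777 to 439385 on chromosome XI, MET16 (YPR167C) 876847 to 877632 on chromosome XVI and MET10 (YFR030W) 213312 to 216419 on chromosome VI. MET17 (YLR303W) spans 732542 to 733876 and SAM1 (YLR180W) 515262 to 516410, both on chromosome XII. CYS3 (YAL012W) spans 130799 to 131983 on chromosome I, CYS4 (YGR155W) 798543 to 800066 on chromosome VII, MET6 (YER091C) 339864 to 342167 on chromosome V and SAM2 (YDR502C) 1453310 to 1454464 on chromosome IV. MET14, MET16, MET6 and SAM2 are on the minus strand and the others on the plus strand. SAM1 and SAM2 are paralogs with similar sequences, and how reads that match both were counted is not given in the sources used here.

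MET17, the O-acetylhomoserine sulfhydrylase, was either abundant or almost absent in most libraries. At 50 RPM, both totals of a replicated strain fell on the same side, except in FAS1-GFP and FAS1-GFP FAS2dMPT. Totals in YPD, in SD-trp and with added fatty acids each fell on both sides. Among totals it stood at 793 RPM in FAS1-GFP FAS2dMPT replicate 1, 567 and 568 RPM in TRP2-GFP, 913 RPM in FAS1-GFP replicate 1, and 971 and 336 RPM in FAS2-GFP. GUS1-GFP total 1 and PFK1-GFP total 1 lay between, at 17.9 and 43.2 RPM. In the other 17 totals it was between 0 and 1.04 RPM, which corresponds to 0 to 12 reads, with no read in 7 of them. Replicates of a strain could therefore differ: the totals of FAS1-GFP had 913 and 1.04 RPM, and those of FAS1-GFP FAS2dMPT 793 and 0.260 RPM. Where a value lies between the sides, fewer cells with the gene and fewer footprints per cell cannot be told apart.

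LYS2 and the mating-type genes divided the totals in the same way. LYS2 had 0 to 7.85 RPM in the 6 totals with at least 50 RPM of MET17, and 236 to 539 RPM in the 17 totals below 10 RPM. The 4 alpha-specific genes (MF(ALPHA)1, MF(ALPHA)2, STE3 and SAG1) summed to 1216 to 2563 RPM in the 6 totals and to 0.682 to 17.5 RPM in the 17. The 6 a-specific genes (STE2, STE6, BAR1, AGA2, MFA1 and MFA2) summed to 3.81 to 15.7 RPM in the 6 and to 636 to 1205 RPM in the 17. None of these ranges overlapped. In the 2 totals between the sides LYS2 stood at 485 and 305 RPM and the alpha-specific sum at 51.4 and 173 RPM, above its range in the 17 totals. Over the 25 totals and 5020 features, the features with the highest Pearson correlation with MET17 on the log2(RPM + 1) scale were MF(ALPHA)1 (0.99), MF(ALPHA)2 (0.99), STE3 (0.95), MATALPHA2 (0.94) and SAG1 (0.94). The lowest was MFA1 (-0.97), and LYS2 had -0.92. These correlations describe 25 libraries that fall into separate clusters, in which strains and replicates share their background.

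**Figure D1:**
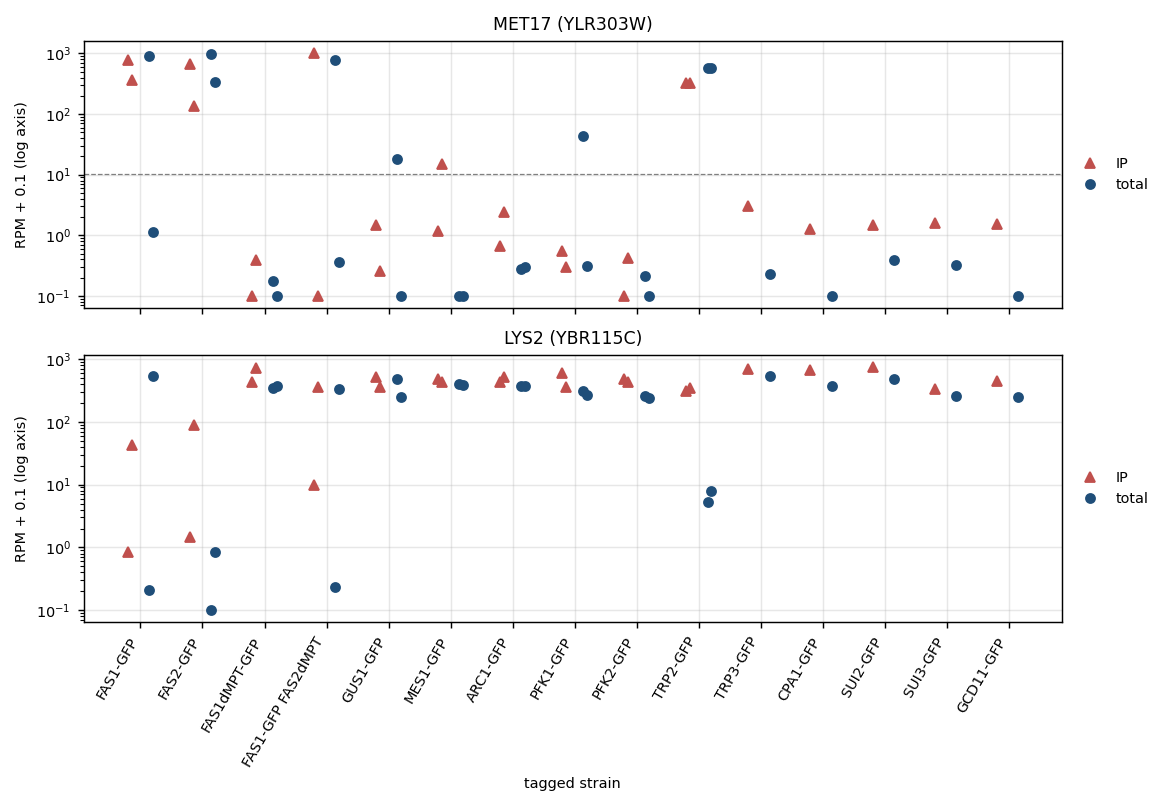
MET17 (upper panel) and LYS2 (lower panel) in each library, in RPM plus 0.1 on log axes, by tagged strain, with IPs as triangles and totals as circles; the dashed line marks 10 RPM of MET17. High MET17 goes with low LYS2 in the 6 totals above 50 RPM, while TRP2-GFP IPs hold both genes. The replicate totals of FAS1-GFP and those of FAS1-GFP FAS2dMPT fall on different sides.

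IPs and totals of the same pair did not always fall on the same side. FAS1-GFP replicate 2 had 366 RPM of MET17 in the IP and 1.04 RPM in the total, with LYS2 at 42.6 RPM in the IP and 539 RPM in the total. The TRP2-GFP IPs had 323 and 330 RPM of MET17, against 567 and 568 RPM in the totals. LYS2 stood at 307 and 343 RPM in those IPs and at 5.12 and 7.85 RPM in those totals. FAS2-GFP replicate 2 had 138 RPM of MET17 in the IP and 336 RPM in the total, and LYS2 had 87.3 RPM in the IP and less than 1 RPM in the total. In these pairs a difference of MET17 between IP and total and a difference in strain background cannot be told apart. The remaining IPs at 50 RPM or more were FAS1-GFP replicate 1 with 793 RPM, FAS2-GFP replicate 1 with 675 RPM and FAS1-GFP FAS2dMPT replicate 1 with 1022 RPM. MES1-GFP IP 2 had 14.7 RPM, and the other 17 IPs had 0 to 2.99 RPM.

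YPD totals with and without MET17 footprints overlapped in each of the other 9 genes, as they did in nearly all features. The 17 YPD totals were set on sides at 10 RPM of MET17, which put 5 with MET17 and 12 without. The 5 include GUS1-GFP total 1 and PFK1-GFP total 1, in which LYS2 stood at 485 and 305 RPM, within its range in the 12. The sides come from the value of MET17 and from no label, so values are given without a test. Of all 4929 features, 0.67% were higher and 0.101% lower in all 5 than in all 12, and 0 of the other 9 genes belonged to either. At 50 RPM, with 3 libraries against 14, the shares of features were 0.162% higher and 0.243% lower, and again 0 of the 9 genes did not overlap. Without FAS1-GFP total 2, a setting added after the data were seen, they were 0.63% and 0.366%, also with 0 of the 9 genes.

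Among the assimilation genes, MET10 had the largest ratio of medians at 10 RPM, 1.75 times with MET17 over without, against 1.55 times for MET14. At 50 RPM MET3 had the largest, at 1.86 times, against 1.39 times for MET10. MET10 stood at 89.6, 123, 43.7, 154 and 109 RPM in the totals with MET17 (FAS1-GFP 1, FAS2-GFP 1 and 2, GUS1-GFP 1 and PFK1-GFP 1), against a lowest of 45.9, a median of 62.4 and a highest of 187 RPM in those without. MET3 stood at 27.6, 42.2, 9.54, 22.2 and 13.3 RPM with MET17, against 10.2, 14.8 and 99.1 RPM without. The highest value of each gene was that of FAS1-GFP total 2, without MET17, and the lowest that of FAS2-GFP total 2, with it. Among the other 16 YPD totals the highest values, 154 RPM of MET10 and 42.2 RPM of MET3, lay on the side with MET17. Median MET14 was 32.6 RPM with MET17 and 21.0 RPM without, and median MET16 was 8.20 RPM with and 8.26 RPM without.

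CYS3 and SAM1 had lower medians with MET17, and MET6 a higher one, in ranges that overlapped. Median CYS3 was 826 RPM with MET17, with libraries from 556 to 1034 RPM, and 1082 RPM without, with libraries from 878 to 1263 RPM. Median MET6 was 1583 RPM with MET17 and 1258 RPM without. Median SAM1 was 816 RPM with and 956 RPM without, and CYS4 (1192 and 1147 RPM) and SAM2 (362 and 357 RPM) had medians close to each other. In the 38 other sulfur genes, a list of transporters, sulfite reductase and homocysteine enzymes and regulators, 33 could be compared in the YPD totals and 0 were free of overlap at 10 or at 50 RPM.

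A single YPD library stood apart in the assimilation genes. FAS1-GFP total 2 held 99.1 RPM of MET3, against 9.54 to 42.2 RPM in the other 16 YPD totals with a median of 14.8 RPM, 6.68 times that median. MET14 had 83.0 RPM there, against 11.1 to 45.3 RPM in the others. MET16 had 26.6 RPM there, against 3.91 to 14.3 RPM, and MET10 had 187 RPM, against 43.7 to 154 RPM. All 4 genes of sulfate reduction were thus above every other YPD total in this library. In the methionine cycle, MET6 stood at 5836 RPM, against 468 to 1854 RPM in the other 16, and SAM2 at 1196 RPM, against 263 to 404 RPM. SAM1, at 1172 RPM, ranked 3 among the 17, CYS4, at 1387 RPM, was highest, and CYS3, at 878 RPM, ranked 14. FAS1-GFP total 1 of the same label had 27.6 RPM of MET3, 1749 RPM of MET6 and 404 RPM of SAM2. FAS2-GFP total 2 was the lowest YPD total for MET3, MET16, MET10, MET6 and SAM2.

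**Figure D2:**
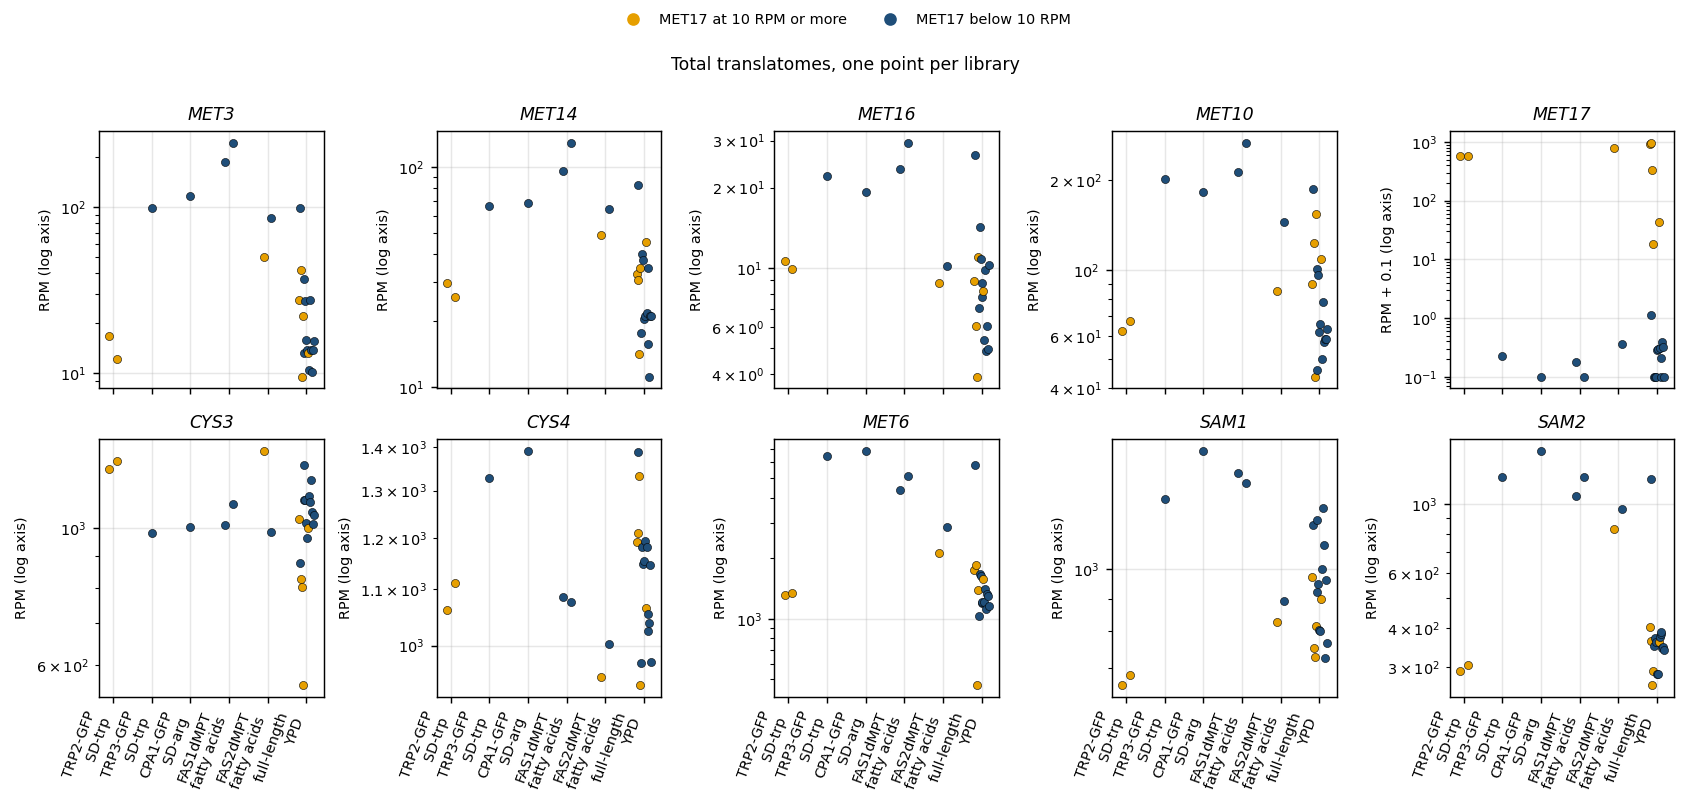
RPM of each of the 10 genes in each total library, on log axes (MET17 plus 0.1), by group, with libraries at 10 RPM of MET17 or more in orange and those below in blue. FAS1-GFP total 2 is the highest YPD point for MET3 (99.1 RPM) and MET6 (5836 RPM), near the TRP3-GFP and CPA1-GFP points. The FAS1dMPT-GFP points lie higher for MET3 and lower for MET6, and the TRP2-GFP points lie in the range of the YPD totals for both genes.

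In 4 totals outside YPD, the same 6 genes stood above the other 16 YPD totals. MET3 had 98.4 RPM in the TRP3-GFP total, 118 RPM in the CPA1-GFP total, and 188 and 245 RPM in the FAS1dMPT-GFP totals. By contrast it was at 16.8 and 12.3 RPM in TRP2-GFP. In FAS1-GFP FAS2dMPT it was at 49.9 and 86.7 RPM, also above the other 16 YPD totals, which reached 42.2 RPM. MET14, MET6 and SAM2 were above those YPD totals in both FAS1-GFP FAS2dMPT totals too, and MET16 and MET10 were not. MET6 had 6472 RPM in the TRP3-GFP total, 6832 RPM in the CPA1-GFP total, and 4368 and 5109 RPM in the FAS1dMPT-GFP totals. TRP2-GFP, grown in the same medium as TRP3-GFP, thus stood with the YPD libraries, at 1313 and 1340 RPM of MET6. The FAS1-GFP FAS2dMPT totals, at 2122 and 2859 RPM, lay between. All 4 high totals had less than 10 RPM of MET17, as did FAS1-GFP total 2, and so did 11 YPD totals in which MET3 was at most 37.1 RPM.

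**Figure D3:**
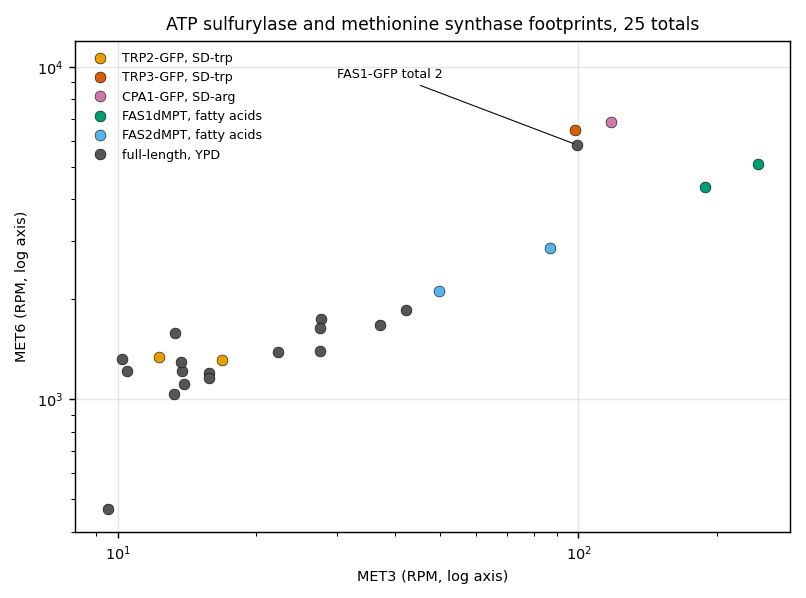
MET6 against MET3 in the 25 totals, both in RPM on log axes, coloured by group. FAS1-GFP total 2 (99.1 and 5836 RPM) lies beside TRP3-GFP and CPA1-GFP, apart from the other 16 YPD totals, which reach 42.2 RPM of MET3 and 1854 RPM of MET6.

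The comparison of FAS1dMPT-GFP with FAS1-GFP asks how translation differs when the MPT domain segment of FAS1 is deleted, with strain and medium differing together. MET3 had 188 and 245 RPM in the FAS1dMPT-GFP totals, against 27.6 and 99.1 RPM in the FAS1-GFP totals. The groups did not overlap, and the log2 difference was 1.82 ± 0.65 (SE, 2 libraries against 2; limma adjusted p = 0.258). By limma, 0.893% of 5153 features were called higher and 0.252% lower, at an adjusted p below 0.05 and a log2 difference of at least 1, and 0 of the 10 genes were called. At an unadjusted p below 0.05 there were 2 genes, MET3 and MET17, among 450 of all features. The median log2 difference was 0.44 over the 10 genes and -0.01 over all features. Log2 differences are of scaled RPM plus 1, which understates the change of low genes. MET14 had a log2 difference of 0.88 ± 0.65, MET10 of 0.68 ± 0.57, MET16 of 0.54 ± 0.64, SAM2 of 0.51 ± 0.33 and MET6 of 0.37 ± 0.53. MET17, with a log2 difference of -5.46 ± 2.54 (limma adjusted p = 0.526), was at 0.0754 and 0 RPM in FAS1dMPT-GFP, against 913 and 1.04 RPM in FAS1-GFP.

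These differences depended on which FAS1-GFP total was used, and 0 of the 10 genes were called with either alone. Without FAS1-GFP total 2, MET3 had a log2 difference of 2.61 (limma adjusted p = 0.0812), against 1.02 without total 1. Without total 2, MET14 had 1.43, MET16 1.17, MET10 1.10, MET6 1.12 and SAM2 1.17. Without total 1, MET14 had 0.33, MET16 -0.10, MET10 0.27, MET6 -0.39 and SAM2 -0.16, so that MET16, MET6 and SAM2 turned negative. MET17 had a log2 difference of -9.96 without total 2, which leaves the FAS1-GFP total with MET17, and of -0.94 without total 1.

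Against all 17 YPD totals of full-length tagged strains, 6 of the 10 genes were called higher in FAS1dMPT-GFP. This comparison was added after the high values of FAS1-GFP total 2 had been seen, and by limma it called 5.25% of the tested features higher and 1.18% lower. Both FAS1dMPT-GFP totals come from the same strain, and libraries of the same strain entered the fit as independent. The p-values therefore do not cover the spread between strains, and means per strain were not compared here. MET3 rose by 3.10 ± 0.53 on the log2 scale (SE, 2 libraries against 17; limma adjusted p = 0.000513), with both FAS1dMPT-GFP totals above every YPD total. MET14 rose by 1.76 ± 0.43 (limma adjusted p = 0.00883), from 2 libraries at 95.9 and 129 RPM against a lowest of 11.1, a median of 21.7 and a highest of 83.0 RPM. MET10 (1.33 ± 0.36) also had no overlap, at 213 and 268 RPM against 43.7, 65.6 and 187 RPM. MET6 (1.47 ± 0.44), SAM2 (1.33 ± 0.31) and MET16 (1.29 ± 0.39) were called too, with FAS1-GFP total 2 inside or above the values of FAS1dMPT-GFP. SAM2 stood at 1056 and 1219 RPM in FAS1dMPT-GFP, against 263, 362 and 1196 RPM in YPD.

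CYS3, CYS4 and SAM1 were not called. CYS3 had 1010 and 1092 RPM in FAS1dMPT-GFP, against a lowest of 556, a median of 1034 and a highest of 1263 RPM in YPD, with a log2 difference of -0.20 ± 0.27 (limma adjusted p = 0.666). CYS4 had a log2 difference of -0.34 ± 0.15 (limma adjusted p = 0.14) and SAM1 of 0.31 ± 0.23 (limma adjusted p = 0.397). In RPM, SAM1 was at 1418 and 1365 in FAS1dMPT-GFP, above the highest YPD total at 1246. After the scaling used in the fit of 40 libraries the ranges overlapped. SAM1 then stood at 1298 and 1231 in FAS1dMPT-GFP, against 1576 in PFK2-GFP total 1 and 1401 in GUS1-GFP total 2. Against the 12 YPD totals below 10 RPM of MET17, the side on which both FAS1dMPT-GFP totals lie, the same 6 genes were called. There MET3 differed by 3.01 ± 0.53 on the log2 scale (limma adjusted p = 0.00106), with 5.36% of features called higher and 1.94% lower. Without FAS1-GFP total 2 as well, 5.93% of features were called higher and 2.31% lower, MET3 differed by 3.19 ± 0.37, and the 6 were called again. With 1 deletion library, assumed to vary as the 17 YPD totals do, fewer features were called. Without FAS1dMPT-GFP total 1, limma called 1.77% of features higher and 0.724% lower, and MET3 alone of the 10 genes, with a log2 difference of 3.22. Without FAS1dMPT-GFP total 2, limma called 1.03% higher and 0.362% lower and 0 of the 10 genes, with MET3 at 2.89. Without any 1 of the YPD totals, the same 6 genes were called.

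**Figure D4:**
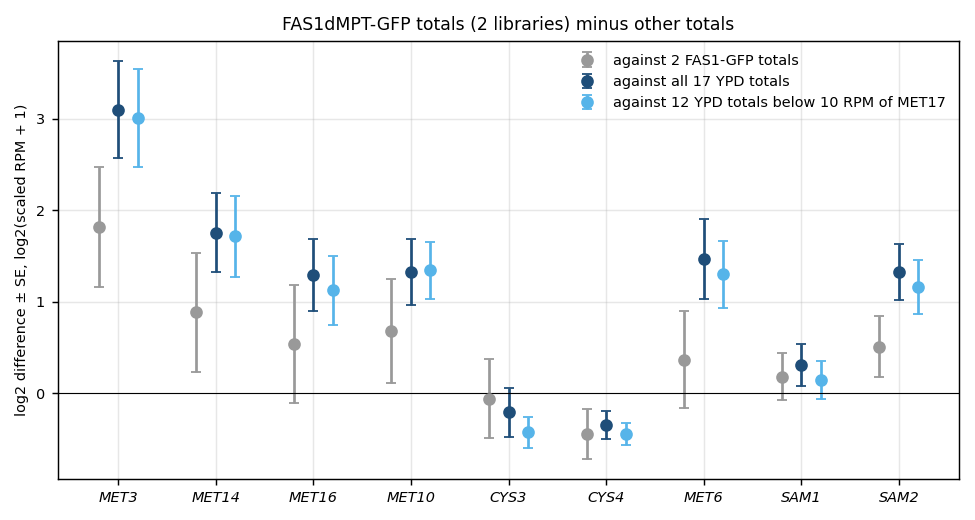
Log2 difference of FAS1dMPT-GFP totals from FAS1-GFP totals, from all 17 YPD totals and from the 12 YPD totals below 10 RPM of MET17, for the 9 genes other than MET17; points are estimates and bars SE, on the scale of log2(scaled RPM + 1). MET3 is highest in each comparison (1.82, 3.10 and 3.01), and CYS4 lies below 0 in each.

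Other genes of sulfur metabolism were called beside these 6. Of the 38 genes on that list, 35 could be tested against the 17 YPD totals. Of these, limma called 7 higher and 1 lower, against 5.25% and 1.18% of all features. The median log2 difference was -0.06 over the list, 1.31 over the 10 genes and 0.02 over all features. SUL2, a sulfate permease, rose by 3.11 ± 0.57, and STR3, cystathionine beta-lyase, by 2.19 ± 0.69. SUL2 averaged under 5 RPM over the 17 YPD totals, and passed the filter of this fit only through the FAS1dMPT-GFP totals. MET28, a cofactor of Met4, rose by 1.88 ± 0.57, MET13, a methylenetetrahydrofolate reductase, by 1.77 ± 0.51 and MET2, homoserine O-acetyltransferase, by 1.37 ± 0.40. SAM4, a homocysteine methyltransferase that uses S-adenosylmethionine, fell, with a log2 difference of -1.44 ± 0.22. Against the 2 FAS1-GFP totals, 36 could be tested and SAM4 alone was called, lower by a log2 difference of -1.27 ± 0.20 (limma adjusted p = 0.000806). In that comparison limma called 0.893% of all features higher and 0.252% lower.

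In the comparison of FAS1-GFP FAS2dMPT with FAS1-GFP totals, where 1.88% of features were called higher and 0.893% lower by limma, 0 of the 10 genes were called. At an unadjusted p below 0.05 there was 1 of the 10, CYS4, among 626 of all features. CYS4 stood at 949 and 1003 RPM in FAS1-GFP FAS2dMPT, against 1192 and 1387 RPM in FAS1-GFP, which did not overlap, with a log2 difference of -0.57 ± 0.27 (limma adjusted p = 0.38). The median log2 difference was -0.44 over the 10 genes and 0.01 over all features. MET3 had 49.9 and 86.7 RPM in FAS1-GFP FAS2dMPT, between the 27.6 and 99.1 RPM of FAS1-GFP, and its log2 difference was 0.15 ± 0.65. That of MET3 was -0.10 without FAS1-GFP FAS2dMPT total 2, -0.62 without FAS1-GFP total 1 and 0.94 without FAS1-GFP total 2. The library labelled FAS1-GFP FAS2dMPT IP 2 had 374 RPM of MET3, and 94.3% of its reads lay over genes, against 88.5% in the library labelled total 2. Whether these libraries carry the right labels was not tested. Each group holds a library with MET17 and a library without, and MET17 itself had a log2 difference of -0.53 ± 2.54. On the list of other sulfur genes, 3 of 36 were called lower: HOM3, aspartate kinase, by -1.23, SHM2, a serine hydroxymethyltransferase, by -1.18 and SAM4 by -1.04. HOM3 stood at 426 RPM in FAS1-GFP total 2, against at most 243 RPM in the other YPD totals. It had 181 to 193 RPM in the 3 YPD totals at 50 RPM of MET17 or more, which include FAS1-GFP total 1. Calls on this list were not repeated with either FAS1-GFP total left out.

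The SD-trp totals were set against the YPD totals, a comparison of medium in which limma called 0% of 4953 features higher and 0% lower. Accordingly 0 of the 10 genes were called, and 0 of the 10 had an unadjusted p below 0.05, against 337 of all features. The log2 difference (± SE, 3 libraries against 17) was 0.72 ± 0.42 for MET6 and 0.66 ± 0.33 for MET16, both at a limma adjusted p of 0.689, and the median was 0.45 over the 10 genes and -0.01 over all features. The strains in SD-trp differed from each other. TRP3-GFP alone had log2 differences from YPD of 2.02 ± 0.62 for MET6, 2.09 ± 0.75 for MET3 and 1.53 ± 0.43 for SAM2, none called by limma (adjusted p = 0.413, 0.491 and 0.366). TRP2-GFP alone had 0.06 ± 0.44 for MET6, -0.29 ± 0.53 for MET3 and -0.17 ± 0.30 for SAM2. The TRP3-GFP arm is 1 library, assumed to vary as the YPD totals do, and limma called 0% of features in either direction in each of these fits. Each strain was also set against the YPD totals on its own side of MET17. TRP3-GFP against the 12 YPD totals below 10 RPM of MET17 had log2 differences of 1.90 for MET6, 2.04 for MET3 and 1.41 for SAM2 (limma adjusted p = 0.444 for each). TRP2-GFP against the 5 YPD totals at 10 RPM or more had 0.38 for MET6, -0.16 for MET3 and 0.16 for SAM2 (limma adjusted p = 0.674, 0.872 and 0.716), and 0 genes were called on either side. In that TRP3-GFP fit 0% of features were called, and in that TRP2-GFP fit 0.958% were called higher and 0.12% lower. CPA1-GFP in SD-arg, with 1 library and no replicate check, had the highest values among the 25 totals for MET6, SAM1, SAM2 and CYS4. These were 6832 RPM of MET6, 1533 RPM of SAM1, 1475 RPM of SAM2 and 1390 RPM of CYS4, the last close to the 1387 RPM of FAS1-GFP total 2.

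SAM2 held a larger part of the summed footprints of SAM1 and SAM2 in the deletion strains, TRP3-GFP and CPA1-GFP than in most YPD totals, a description with no test. SAM2 footprints made up 42.7% and 47.2% of the sum of both genes in FAS1dMPT-GFP totals, 50.2% and 52.0% in FAS1-GFP FAS2dMPT, 48.5% in TRP3-GFP and 49.0% in CPA1-GFP. In TRP2-GFP totals they made up 30.6% and 30.8%. The YPD totals had a lowest share of 22.7%, a median of 27.2% and a highest of 50.5%, the last in FAS1-GFP total 2. Without that library the highest YPD share was 32.5%, below the shares of the deletion strains, TRP3-GFP and CPA1-GFP. The share was between 19.9% and 53.1% in the 25 IPs.

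Over the 25 totals, leaving out the 10 genes, the features whose log2(RPM + 1) was most like the median of MET3, MET14, MET16 and MET10 were STR3 (Pearson r = 0.92), SUL2 (0.91), SER3 (0.91), MET5 (0.90) and MET2 (0.90). SER3 is a phosphoglycerate dehydrogenase of serine synthesis and MET5 is a sulfite reductase subunit. Of the other genes described here, MET6 had 0.91, SAM2 0.90, SAM1 0.65, CYS4 0.21, CYS3 -0.08 and MET17 -0.17. The median over 5020 features was 0.35. These values describe libraries that share strains and replicates.

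The IP and total libraries compare mRNAs whose ribosomes came down with a tagged subunit with all translated mRNAs. None of the 10 genes encodes a tagged subunit. Over the 10 replicated strains, limma called 3.92% of 5153 features higher and 0.194% lower in IPs, and 0 of the 10 genes. CYS3 stood lower in IPs without reaching the fold threshold. It had 413 to 1213 RPM in the 20 IPs, with a median of 700 RPM, against 556 to 1333 RPM in the 20 totals, with a median of 1063 RPM, and these ranges overlapped. The mean log2 difference was -0.79 ± 0.14 (SE; limma adjusted p = 5.04e-05), negative in 10 of 10 strains, and 2.17% of all features had a lower one. Over all 25 pairs of IP and total, CYS3 in RPM was lower in the IP in 24.

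CYS4 had a mean log2 difference of -0.51 ± 0.09 (limma adjusted p = 3.84e-05), negative in 10 of 10 strains, with 15% of features lower. SAM1 had one of 0.26 ± 0.08 (limma adjusted p = 0.00735), positive in 9 of 10 strains. Both lie below the fold threshold, and at an adjusted p below 0.05 at any fold, 29.8% of features were higher and 32.8% lower. CYS4 was lower in the IP in 23 of 25 pairs and SAM1 higher in 23 of 25. The other 7 genes had mean log2 differences from -0.39 (MET14) to 0.20 (MET10), each with an adjusted p above 0.1, and the median was 0.01 over the 10 genes and -0.03 over all features. With no further scaling of RPM, under which the median of all features was -0.29, CYS3 was called lower at -1.07 and SAM1 turned to -0.017. In the 6 replicated strains with every library below 50 RPM of MET17 (ARC1-GFP, FAS1dMPT-GFP, GUS1-GFP, MES1-GFP, PFK1-GFP and PFK2-GFP), a subset chosen after the data were seen, CYS3 had -0.85 (limma adjusted p = 0.00356), CYS4 -0.46 (0.00471) and SAM1 0.29 (0.0596). There limma called 3.91% of features higher and 0.0786% lower, and none of the 9 genes that could be tested.

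**Figure D5:**
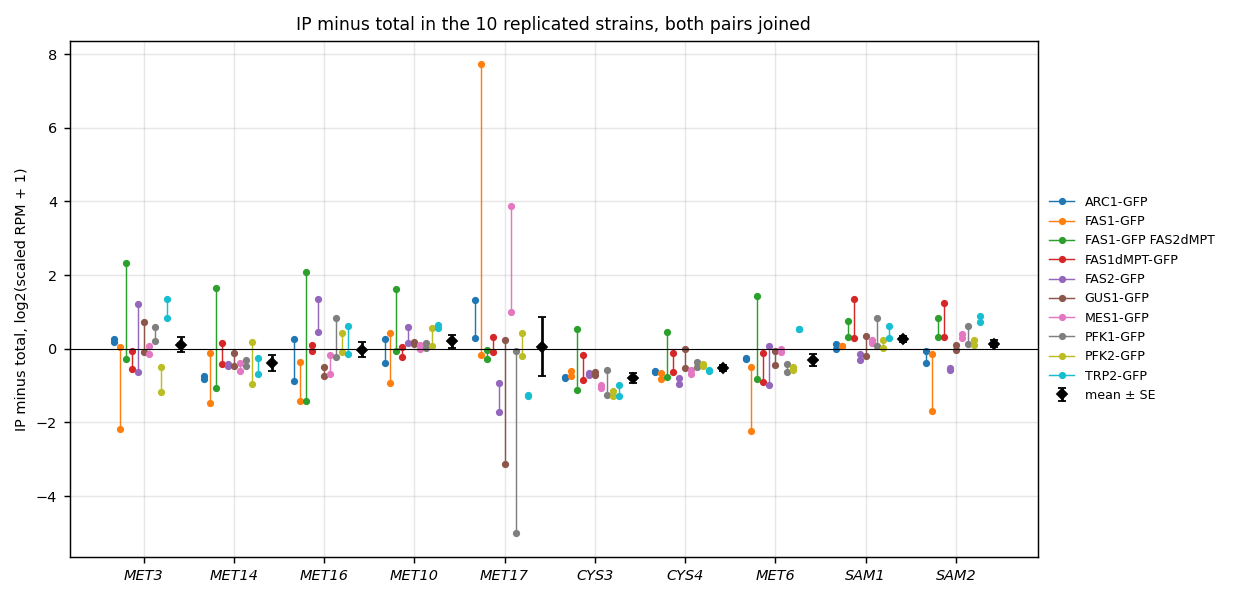
IP minus total difference of log2(scaled RPM + 1) for each gene, with both replicate pairs of each of the 10 replicated strains joined by a line and the mean over strains with its SE as a black diamond. CYS3 and CYS4 lie below 0 in nearly all pairs, MET17 spreads from -5.01 (PFK1-GFP pair 1) to 7.73 (FAS1-GFP pair 2), and replicate pairs of FAS1-GFP and FAS1-GFP FAS2dMPT lie far apart for MET3 and MET6.

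Within single strains, limma called 0 of the 100 combinations of gene and strain, against 1.14% called higher and 0.931% lower over all features and strains. With a replicate block, limma called 5 combinations. CYS3 was lower in MES1-GFP, PFK2-GFP and TRP2-GFP, and in FAS1-GFP MET6 was lower and MET17 higher, with 4.94% of combinations of feature and strain called higher and 2.94% lower. The FAS1-GFP pairs lay far apart, at -0.49 and -2.24 for MET6 and at -0.18 and 7.73 for MET17. In replicate 2 MET17 had 366 RPM in the IP and 1.04 RPM in the total. Replicate pairs lay far apart for MET3 in FAS1-GFP and FAS1-GFP FAS2dMPT, and for MET17 in PFK1-GFP among other strains. In FAS1-GFP, MET3 had 28.2 RPM in IP 1 and 17.7 RPM in IP 2, against 27.6 RPM in total 1 and 99.1 RPM in total 2, so that log2 differences of the pairs were 0.06 and -2.17. In FAS1-GFP FAS2dMPT, MET3 had 54.2 RPM in IP 1 and 374 RPM in IP 2, against 49.9 RPM in total 1 and 86.7 RPM in total 2, and the pairs gave -0.28 and 2.32. MET6 followed, with 1596 and 6565 RPM in these IPs and 2122 and 2859 RPM in the totals. This library labelled IP 2 held the highest MET3, MET14, MET16 and MET10 of all 50 libraries. Without this pair the mean difference of MET3 over strains was -0.019, against 0.11 with it. In an F test between the 10 strains, added after the data were seen, limma gave 0.136% of features and 0 of the 10 genes an adjusted p below 0.05, and SAM2 came closest (unadjusted p = 0.0173, adjusted p = 0.377). On the list of other sulfur genes, 1 of 36, the cysteine transporter YCT1, was called higher in IPs, by 1.00 ± 0.26 (limma adjusted p = 0.00199). Of all features, 3.92% were called higher there, and the difference of YCT1 lay at the fold threshold. YCT1 averaged under 5 RPM over the YPD totals.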

How the data were processed

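Values per gene were analysed for 25 IP and 25 total libraries; the other 16 libraries have no table of this kind and were not used here. The submitters' processing notes name cutadapt 1.8.3, an adapter trimmer. How reads were aligned and counted, with which strand setting and genome build, is not given in the sources used here. Columns of the deposited tables carry no names. The values the authors deposited were taken as RPM, reads scaled to library size, because the low values of a library are multiples of a step; this unit is inferred from the values. In units of that step, 13.4% to 75.6% of its values were whole within 0.01 read, so counts were not recovered and no count test was used. The 28 mitochondrial features were left out and RPM rescaled to the 6577 nuclear ones.

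For tests, libraries were scaled to each other by a trimmed mean of their log ratios without weights (trimmed by 0.3 on ratios and 0.05 on means), values were set to log2(value + 1), features averaging under 5 RPM in a fit were dropped, and the rest was fitted with limma 3.58.1 (limma-trend, R 4.3.3), with Benjamini-Hochberg adjustment over all features tested. Calls needed an adjusted p below 0.05 together with a log2 difference of 1 or more in either direction. The IP and deletion comparisons came from 1 fit of 40 libraries with a mean per strain and fraction, whose SE is shared over strains, and the SD-trp comparison from 3 against 17 totals. The procedure was tested on simulated data with independent noise of the same size in every feature and library. That simulation did not cover strain backgrounds shared between libraries or an arm of 1 library. Symbols were matched to RefSeq (assembly R64) for 5919 of 6605 features. The 10 genes, the lists and the comparisons were chosen with earlier results of these data known. The 10 genes are always described; other sulfur genes are named where called, at most the 6 with the largest absolute difference per comparison, together with the 5 features most correlated with MET17 and with the median of the assimilation genes. Intervals for single values are not given, and depth per library limits the low values of MET17 to a few reads.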

Additional observations from a re-analysis of the deposited data

How the results depend on the processing

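Alternatives were the scaling, the pseudocount, the filter, a replicate block, single libraries or strains left out and other sets of YPD totals. The number of the 10 genes called in the mean IP minus total difference was 0, and 1 (CYS3, lower) with no further scaling. The combinations of gene and strain called numbered 0, against 9 with no further scaling, 1 with equal totals over nuclear genes and 5 (1 higher, 4 lower) with a replicate block, and 0 to 2 with single libraries left out. The replicate number did not pair the libraries in every strain, since the correlation of same-numbered deviations was between 0.0036 (ARC1-GFP) and 0.837 (GUS1-GFP), and the block changed no other count. The genes called in FAS1dMPT-GFP numbered 6 against all YPD totals, 6 against those below 10 RPM of MET17 and 6 without FAS1-GFP total 2, all settings added after the data were seen. Counts in the other comparisons stayed at 0 in each alternative, including those with single libraries left out. The features called higher and lower in the mean IP difference were 202 and 10, against 112 and 184 with no further scaling and 361 and 0 with equal totals. With no further scaling and with equal totals, the median of all features was shifted by -0.26 and 0.22 in the IP mean, by 0.30 and 0.19 for FAS1dMPT-GFP and by 0.12 and 0.17 for FAS1-GFP FAS2dMPT.

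Reversed signs occurred in values that were not called, and their cause was not tested. With no further scaling the IP means of MET3 (-0.15), MET10 (-0.077), SAM1 (-0.017), SAM2 (-0.14) and MET17 (-0.18) turned negative, CYS3 in FAS1dMPT-GFP became 0.26 and MET14 in FAS1-GFP FAS2dMPT 0.049. With equal totals the IP mean of MET16 was 0.18, CYS3 in FAS1dMPT-GFP 0.14 and MET14 in FAS1-GFP FAS2dMPT 0.10. The IP mean of MET17 was -0.074 with a pseudocount of 5. The IP mean of MET3 was -0.019 without replicate pair 2 of FAS1-GFP FAS2dMPT and -0.040 in the strains below 50 RPM of MET17. For SD-trp, TRP2-GFP against YPD totals at 10 RPM of MET17 or more gave MET3 -0.16, MET10 -0.24 and SAM1 0.017, and means per strain gave SAM1 0.022. TRP3-GFP alone gave MET17 -2.19, CYS3 -0.20 and SAM1 0.31, and against totals below 10 RPM it gave CYS3 -0.37 and SAM1 0.19.

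With single libraries left out, the IP mean ran from -0.044 to 0.27 for MET3, from -0.20 to 0.15 for MET16 and from -0.43 to 0.53 for MET17. The FAS1dMPT-GFP difference from FAS1-GFP ran from -0.10 to 1.17 for MET16, from -0.29 to 0.17 for CYS3, from -0.39 to 1.12 for MET6 and from -0.16 to 1.17 for SAM2. The FAS1-GFP FAS2dMPT difference ran from -0.62 to 0.94 for MET3, from -0.59 to 0.48 for MET14, from -0.78 to 0.017 for MET10, from -5.22 to 4.15 for MET17, from -0.28 to 0.45 for CYS3, from -1.28 to 0.20 for MET6 and from -0.45 to 0.86 for SAM2. The SD-trp difference ran from -0.29 to 1.02 for MET3, from -0.12 to 0.55 for MET10, from -0.31 to 0.00031 for SAM1 and from -0.17 to 0.69 for SAM2.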
